A study of Rattus norvegicus with 12 samples.

Results

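The comparison described here set WB311 cells against WB-F344 cells with rapamycin present in both. Its members were all probe sets, other than array controls, whose mean intensity was at least 100 in WB311 or in WB-F344 cells on the 6 rapamycin arrays, which gave 13949 of 31042 probe sets and, at 1 probe set per gene, 8557 genes. WB-F344 is a diploid epithelial line from adult rat liver, labelled non-tumorigenic and sensitive to rapamycin, with a doubling time of 42 hr. WB311 arose spontaneously from it and is labelled tumorigenic and resistant, with a doubling time of 15.5 hr. Both lines grew in DMEM/F-12 with fetal bovine serum and received 50 nM rapamycin or DMSO vehicle for 24 hr, with 3 plates per group and 1 array per plate, 12 arrays in all. Each line was 1 line, so that the p-values here measure only the spread between plates, which may be technical, and not that between independently derived lines, and the sensitivity label, the tumorigenicity and the doubling time cannot be told apart from line identity. In RNA from whole plates, fewer cells with a transcript and less of it per cell cannot be told apart either.

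Rapamycin binds FKBP12 (gene Fkbp1a), and the complex inhibits mTOR complex 1 (mTORC1), a kinase that couples amino acid and growth factor supply to translation, ribosome production, lipid synthesis and autophagy. Its best known substrates are the S6 kinases and the 4E-BP repressors of cap-dependent translation. In proliferating cells, inhibition of mTORC1 delays passage from G1 to S phase, which is otherwise driven by cyclin D and cyclin E kinases, restrained by CDK inhibitors and read out through E2F target genes.

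The markers showed neither line to be hepatocyte-like on these arrays. Of 17 hepatocyte markers on the array, 16 were under 100 in both lines, and albumin (Alb) read 32.8, 31.2 and 31.7 in WB-F344 and 31.5, 33.5 and 31.6 in WB311 cells with rapamycin. The exception, transthyretin (Ttr), read 98.7, 96.1 and 115 against 113, 104 and 90.4, and was not called. Of 11 leukocyte markers, 10 were under 100 in both lines, Ptprc among them, and Cd14 was the exception. Of 8 mesenchymal markers tested, 7 were lower in WB311 cells and 0 higher, and their summed intensity over all 15 on the array ran from 55036 to 61915 in WB-F344 and from 17271 to 18029 in WB311 plates. Of 14 biliary and progenitor markers, 5 were tested, with 2 higher (the simple keratins Krt18 at 3.22 ± 0.19 and Krt8 at 1.28 ± 0.07 on the log2 scale) and 3 lower (Krt7 at -5.11 ± 0.13, the surface sialoglycoprotein Cd24 at -2.23 ± 0.12 and Spp1, osteopontin, at -1.81 ± 0.09). The median difference of these markers was -1.81 over the 5 tested with rapamycin and 0.80 over the 6 tested with vehicle. These were not the same sets of genes, so the medians do not show a shift of the list. Over the 6 tested with either treatment, the line difference with rapamycin minus that with vehicle had a median of 0.01.

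The lines differed broadly. Calls required a fold of 1.2 or more between the lines, together with an adjusted p below 0.05. With rapamycin present, 8204 of 13949 probe sets (58.8%) were called, 4602 higher and 3602 lower in WB311 (4070 and 4082 after cyclic loess between arrays, so that the lean to higher depended on the scaling), and 9401 had an unadjusted p under 0.05. By gene, 5197 of 8557 (60.7%) were called, with 2901 (33.9%) higher and 2296 (26.8%) lower, and these shares are the background for every count of list members that follows. The 3 arrays of each line did not overlap for 72.3% of all probe sets and 75.3% of all genes tested. The median log2 difference over tested genes was 0.06. Large differences ran more often downward: 155 genes were over 8-fold lower and 88 over 8-fold higher. Between arrays, RNA quality differed at 1 plate number: log2 of the 3' over the 5' beta-actin control was 0.62 on WB-F344 rapamycin plate 2 and 1.04 on WB-F344 vehicle plate 2, against 0.21 to 0.26 on the other WB-F344 plates and 0.38 to 0.49 in WB311. Without both WB-F344 plates numbered 2, 8926 probe sets were called.

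**Figure D1:**
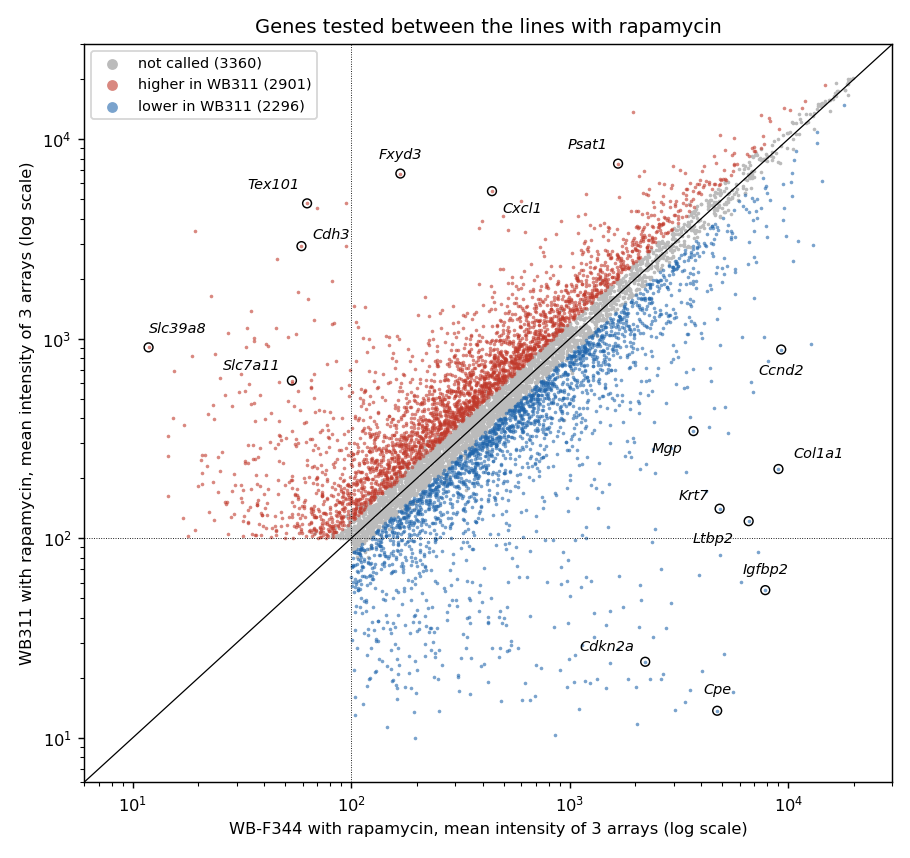
Mean intensity of each tested gene in WB-F344 (horizontal) and WB311 (vertical) cells with rapamycin, each the mean of 3 arrays, on log scales. The diagonal marks equal intensity, the dotted lines mark 100, and colour marks the 2901 genes called higher and the 2296 called lower in WB311; genes with few or no detected transcripts in 1 line lie left of or under the dotted lines.

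Among genes at 100 or more in both lines, the lowest differences belonged to genes that were high in WB-F344 cells. Ltbp2 (probe set 1368448_at), a microfibril protein of the latent TGF-beta binding family, read 5927, 7438 and 6412 on the WB-F344 plates and 150.0, 105 and 110.5 on the WB311 plates, a log2 difference of -5.77 ± 0.19 (SE, adjusted p = 4.98e-10). Krt7 (1373900_at), a keratin of simple and biliary epithelium, read 4637, 5212 and 4710.0 against 123, 156 and 143, a difference of -5.11 ± 0.13 (SE, adjusted p = 9.37e-11). Gadd45g, a growth arrest and DNA damage gene, read 2339, 2622 and 2378 against 113, 101 and 119.8, a difference of -4.46 ± 0.08 (SE, adjusted p = 6.24e-12). For all of these the lowest WB-F344 plate was more than 10-fold above the highest WB311 plate. The same side held Col1a1, the main fibrillar collagen chain, at -5.33 ± 0.16, Ankrd1, a stretch-responsive nuclear protein, at -4.58 ± 0.20, and Mxra8, a matrix remodelling adhesion protein, at -3.98 ± 0.07.

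Other WB-F344 genes were under 100 in WB311, where low intensities compress the fold. Cpe (1386921_at), the carboxypeptidase E that trims prohormones, read 4519, 4826 and 4849 against 13.4, 14.1 and 13.6, a difference of -8.43 ± 0.10 (SE, adjusted p = 9.74e-13). The WB311 values were below those of albumin in the same cells, so the size of this difference rests on the floor of the array. Mycn, a member of the MYC family of growth regulators, read 2303, 2901 and 2678 against 18.2, 17.4 and 23.5, a difference of -7.07 ± 0.18 (SE, adjusted p = 9.14e-11). Neither gene left any overlap between the plates of the lines, but genes named as extremes were chosen for that, and 75.3% of all genes tested had none. Cd200, an immunoregulatory membrane glycoprotein, Akap12, a scaffold for protein kinase A, Htra1, a secreted serine protease, and Bmper, a BMP-binding protein, differed by -7.78, -7.59, -7.54 and -7.44 in that order. Il1rl1, the receptor of interleukin-33, differed by -7.01. Direction, but not size, was shared by the probe sets of some of these genes: a second one read -4.63 for Akap12 and -2.08 for Il1rl1.

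Other genes stood on the WB311 side. Fxyd3 (1389360_at), a regulator of the sodium pump, read 155, 160.3 and 188 in WB-F344 and 6991, 6356 and 6836 in WB311 cells, a difference of 5.33 ± 0.09 (SE, adjusted p = 4.96e-12). Cxcl1, a neutrophil-attracting chemokine, read 479.7, 445 and 398 against 5379, 5459 and 5633, a difference of 3.64 ± 0.09 (SE, adjusted p = 8.15e-11). Id2, a helix-loop-helix protein that holds back differentiation factors, read 432, 361 and 396 against 3685, 3786 and 4162, a difference of 3.29 ± 0.10 (SE, adjusted p = 2.36e-10). Every WB311 plate was above every WB-F344 plate for these genes, but the lines did not overlap for 75.3% of all genes tested. Among genes under 100 in WB-F344, Slc39a8, a zinc and manganese importer, differed by 6.27 ± 0.11, Tex101, a germ cell surface glycoprotein, by 6.25 ± 0.08, Cyp4b1, a cytochrome P450, by 5.85 ± 0.23, and Cdh3, P-cadherin, by 5.64 ± 0.13. Tek, the angiopoietin receptor, read 40.4, 22.6 and 36.7 against 1182, 1012 and 1191, a difference of 5.13 ± 0.22 (SE, adjusted p = 5.48e-09). Of 11 endothelial markers, 8 were under 100 in both lines, Pecam1 and Kdr among them, and of the 3 tested 2 were higher and 1 lower.

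Genes of the G1 to S transition were split between brakes and drivers. Of 9 CDK inhibitors and RB family members tested, 6 were lower and 2 higher in WB311 cells. Cdkn2a (1369194_a_at), which encodes the CDK4/6 inhibitor p16 and the p53 activator ARF, read 2493, 1850.2 and 2306 in WB-F344 and 22.0, 28.7 and 21.5 in WB311 cells, a difference of -6.53 ± 0.14 (SE, adjusted p = 1.9e-11). Its neighbour Cdkn2b, which encodes p15, read 401, 262 and 377 against 38.1, 37.5 and 45.1, a difference of -3.09 ± 0.22 (SE, adjusted p = 2.83e-07). Both were near the array's floor on all WB311 plates. Cdkn1a, which encodes p21, differed by -1.18 ± 0.12 (SE, adjusted p = 7.43e-06), and Cdkn1b, which encodes p27, by -0.40 ± 0.07 (SE, adjusted p = 0.000239). For p27 the lowest WB-F344 plate read 2563 and the highest WB311 plate 2129, so the lines did not overlap, at a fold under 1.5. Rbl1, the p107 pocket protein and itself an E2F target, was higher, by 1.02 ± 0.12.

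The drivers were mostly higher in WB311 with rapamycin, with 9 of 14 G1/S cyclins, kinases and E2F factors higher and 2 lower. With vehicle 5 were higher and 3 lower, against 27.8% and 28.7% of all genes. The median difference was 0.14 with vehicle and 0.46 with rapamycin. The change between treatments was called upward for 4 and downward for 1, against 8.66% and 3.87% of all genes. Cdk2 (1394320_at), the kinase partner of cyclin E, read 519, 477 and 521 in WB-F344 and 785, 794 and 828 in WB311 cells, a difference of 0.67 ± 0.07 (SE, adjusted p = 1.19e-05). With vehicle it read 856, 707 and 785 against 801, 831 and 787 and was not called (0.05). Ccne2, a cyclin E, differed by 1.63 ± 0.13 and E2f2 by 2.47 ± 0.22. Ccnd2, cyclin D2, stood on the opposite side. It read 11102, 7471 and 9297 against 862, 888 and 899.5, a difference of -3.38 ± 0.16 (SE, adjusted p = 1.24e-08). Cyclin D1 (Ccnd1, 0.05) and cyclin E1 (Ccne1, -0.17 ± 0.08 (SE, adjusted p = 0.0885)) were not called. Of 17 p53 target genes tested, 13 were lower and 3 higher in WB311, among them Ccng1, cyclin G1, at -1.55 ± 0.07 and Phlda3, an AKT-binding inhibitor, at -1.08 ± 0.05, with Gadd45a at 2.40 ± 0.10 in the other direction.

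**Figure D2:**
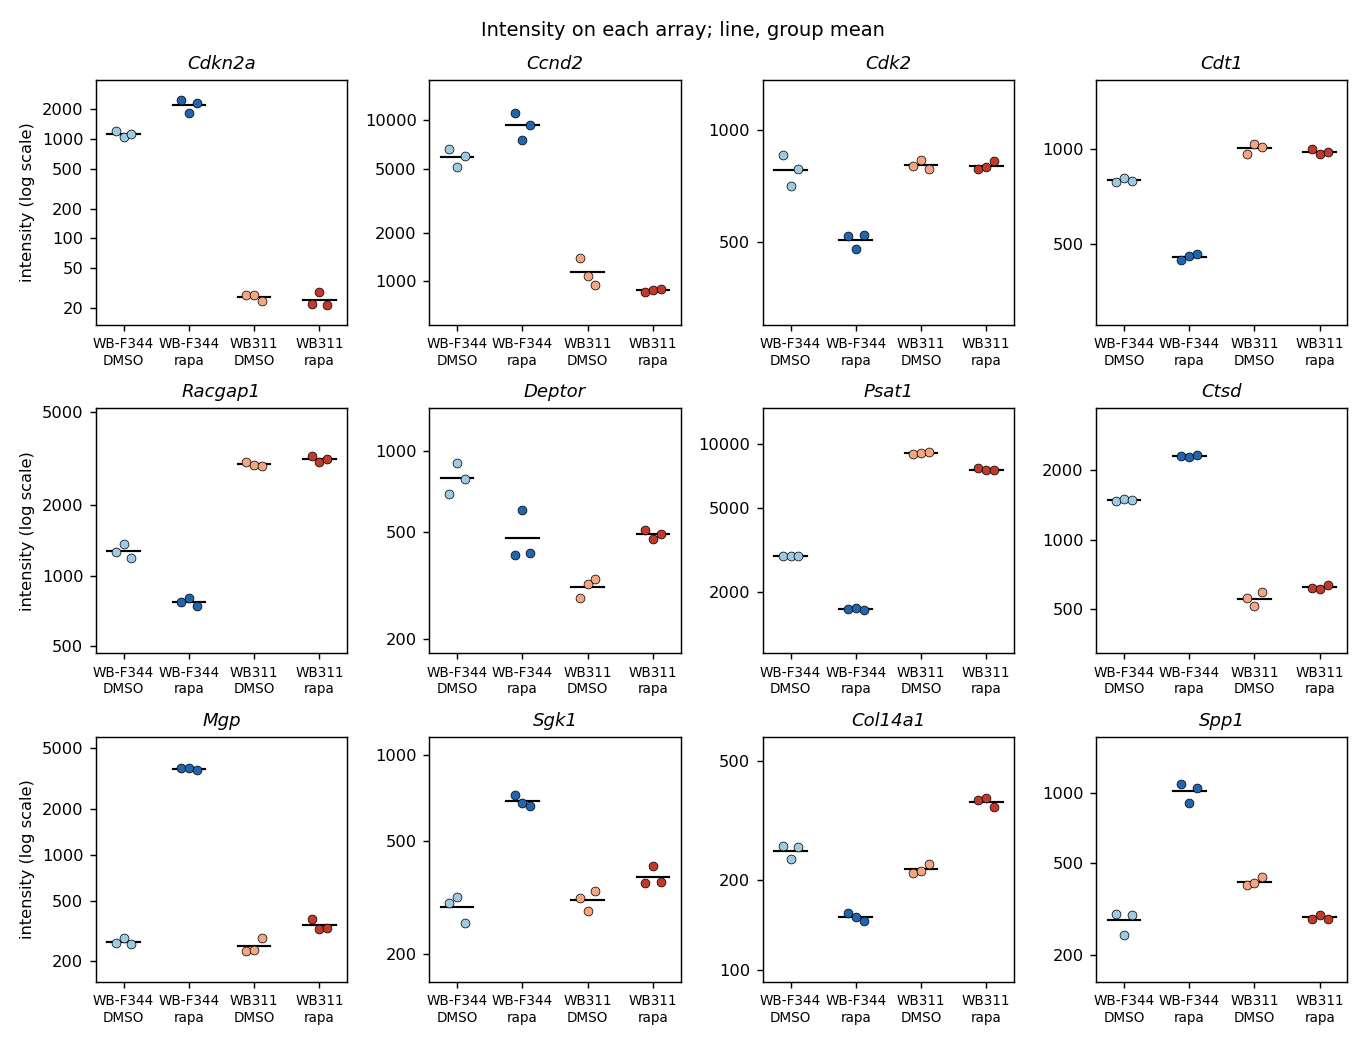
Intensity on each of the 12 arrays (points, log scale, the range differing between panels) for 12 genes, in WB-F344 (blue) and WB311 (red) cells with DMSO vehicle (pale) or rapamycin (dark), with the mean of 3 plates as a line. Cdkn2a was near 24 in WB311 with rapamycin, Cdk2, Cdt1 and Racgap1 were lowest in WB-F344 with rapamycin, and Mgp was high only in that group.

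DNA replication and mitosis genes gave the largest shares called in 1 direction among the lists. Of 45 replication genes tested, 42 were higher and 0 lower in WB311, with a median difference of 0.83. Of 43 mitosis genes, 41 were higher and 0 lower, with a median of 1.04. With vehicle, where 56.5% of all genes were called, the counts were 22 and 0 for replication and 23 and 2 for mitosis, against 27.8% of all genes higher and 28.7% lower, with medians of 0.25 and 0.35. The difference between the 2 line differences was called upward for 34 replication and 31 mitosis genes, against 8.66% of all genes, and downward, against 3.87% of all genes, for 1 replication gene (Orc4), which was chosen after its value was seen, whose other probe set was called higher with rapamycin, and whose change lost its call in 15 of 22 other settings. Counts in both lists were close under the other array scalings, 31 and 30 after cyclic loess and 33 and 32 after median centring. With the WB-F344 plates paired by number they were 38 and 39, against 18.2% of all genes.

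The plates show which group moved. Cdt1 (1377967_at), which loads the MCM helicase at origins, read 444, 457 and 466 in WB-F344 with rapamycin and 784, 809 and 792 with vehicle, against 995, 962 and 976 and 965, 1033 and 1015 in WB311. Racgap1, a protein of cytokinesis, read 773, 806 and 745 and 1256, 1364 and 1185 in WB-F344 against 3250.0, 3048 and 3159.7 and 3059, 2960.3 and 2951 in WB311. In both genes the rapamycin plates of WB-F344 were the lowest of the 4 groups, while the WB311 groups lay close together. The line differences with rapamycin were 1.10 ± 0.05 (SE, adjusted p = 9.41e-09) for Cdt1 and 2.02 ± 0.06 (SE, adjusted p = 4.21e-10) for Racgap1, whose other probe set read 2.89. Gmnn, geminin, which restrains Cdt1, differed by 1.51 ± 0.06, Pole2, a subunit of DNA polymerase epsilon, by 1.57 ± 0.08, Bub1b, a spindle checkpoint kinase, by 1.11 ± 0.05, and Melk, a mitotic kinase, by 2.43 ± 0.09.

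The promoters of these lists were searched on both strands, from 250 bases before to 50 after the RefSeq start site (GRCr8), for letters of the E2F site, TTTGGCGC or TTTCCCGC, and for the CCAAT box bound by NF-Y, spelled CCAAT. An E2F spelling was in 16 of 40 replication promoters with a window (40.0%) and in 0 of 39 mitosis promoters, against 1.53% of 27457 promoters. CCAAT was in 31 of 39 mitosis promoters (79.5%) and 22 of 40 replication promoters (55.0%), against 37.7% of all. A match is a description of letters and not a measured binding site. The 250 bases before the start of Gins1 and Gins3, subunits of the GINS helicase complex (0.96 and 1.44), and of Cenpk, a kinetochore protein (1.03), are shown because they were the called members of smallest adjusted p with the spelling upstream of the start. Gins1 lies at chr3:160184670-160184919 on the plus strand, Gins3 at chr19:9434680-9434929 on the minus strand and Cenpk at chr2:37094017-37094266 on the plus strand. Capitals mark the E2F spelling in the GINS genes and CCAAT in Cenpk.
Gins1: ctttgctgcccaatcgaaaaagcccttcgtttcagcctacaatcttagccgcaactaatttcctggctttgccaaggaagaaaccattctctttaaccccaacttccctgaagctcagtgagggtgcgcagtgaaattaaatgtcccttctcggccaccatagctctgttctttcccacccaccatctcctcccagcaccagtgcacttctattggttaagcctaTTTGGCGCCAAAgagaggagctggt
Gins3: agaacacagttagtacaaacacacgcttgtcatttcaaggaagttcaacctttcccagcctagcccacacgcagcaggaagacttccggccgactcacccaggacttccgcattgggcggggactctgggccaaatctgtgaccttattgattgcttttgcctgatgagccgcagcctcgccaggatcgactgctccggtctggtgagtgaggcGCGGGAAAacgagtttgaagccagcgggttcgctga
Cenpk: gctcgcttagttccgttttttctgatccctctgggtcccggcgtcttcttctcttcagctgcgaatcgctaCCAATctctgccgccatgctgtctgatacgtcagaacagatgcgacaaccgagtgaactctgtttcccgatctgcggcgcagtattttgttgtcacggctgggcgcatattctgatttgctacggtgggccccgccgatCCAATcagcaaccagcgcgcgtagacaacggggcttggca

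The mTOR pathway itself was split. Of 26 members of the mTOR complexes and their regulators, 7 were higher and 6 lower, so that 50.0% were called against 60.7% of all genes. Ddit4 (REDD1), a stress-induced inhibitor of mTORC1, read 225, 228 and 226 in WB-F344 and 1001, 841 and 941 in WB311 cells, a difference of 2.03 ± 0.08 (SE, adjusted p = 1.62e-09). Sesn1, a sestrin that restrains mTORC1 when leucine is low, differed by 2.04 ± 0.17, and Prr5, an mTORC2 subunit, by 0.95 ± 0.08. The inhibitors Ddit4 and Sesn1 were thus higher in the resistant line. Mtor differed by 0.70 ± 0.17, a call lost in the unequal-variance t-test of the methods, and Fkbp1a, the rapamycin-binding protein, by -0.52 ± 0.10. Rptor (-0.13), Rheb (0.09), Tsc1 (0.04), Tsc2 (-0.21) and Rictor (0.32) were not called. Deptor, an inhibitor of both mTOR complexes, read 409, 602 and 416 against 506, 469.6 and 491 and overlapped, at 0.06 ± 0.15 (SE, adjusted p = 0.725), where with vehicle it differed by -1.34 ± 0.15 (SE, adjusted p = 1.24e-05). Its second probe set read 0.56 higher with rapamycin and was not called.

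Downstream of mTOR, 5 of 18 members of the AKT, S6K and 4E-BP arm were higher and 3 lower. Eif4ebp1, the 4E-BP1 repressor, differed by 0.65 ± 0.10, Eif4b, a cofactor of the eIF4A helicase, by 0.74 ± 0.06, and Eef2k, the kinase that inhibits elongation factor 2, by 1.91 ± 0.20. Rps6, the S6 kinase substrate, differed by 0.35 ± 0.05, a call lost after cyclic loess, and Akt1 (0.19) and Rps6kb1 (-0.14), which encodes S6K1, were not called. Grb10, an adaptor that dampens insulin and IGF signalling, differed by -3.26 ± 0.13 at its probe set of highest intensity, while its 3 probe sets did not share a direction and ran from -3.26 to 0.91. Of 41 cytosolic ribosomal protein genes, 6 were called, or 14.6% against 60.7% of all genes, and their median difference was 0.06 and that of all genes 0.06. These genes have many near-identical pseudogene copies that probes may share. Ribosome biogenesis factors were called for 12 of 34 higher and 4 lower, and translation factors for 12 of 40 higher and 2 lower.

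**Figure D3:**
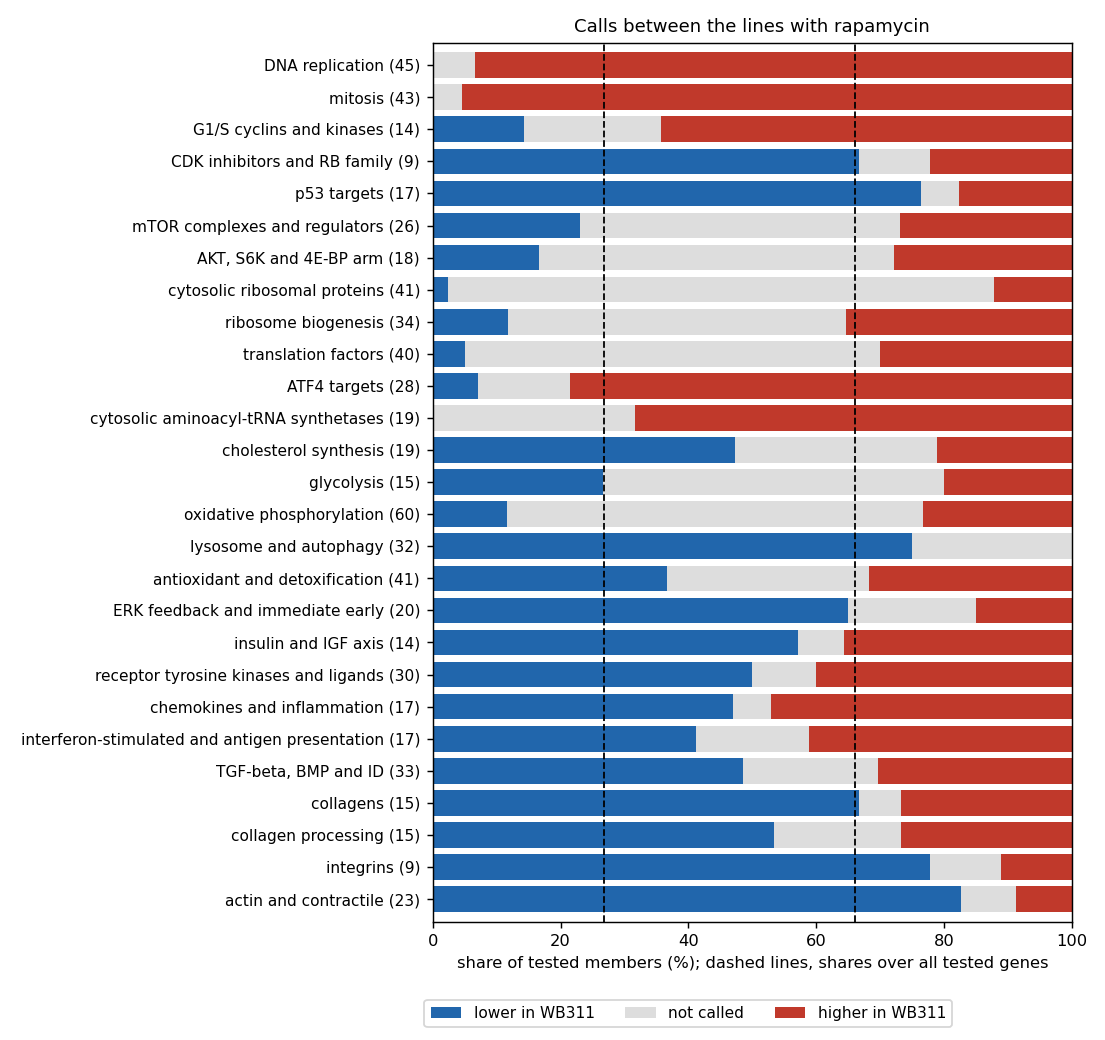
Share of tested members (horizontal, %) called lower (blue), not called (grey) or called higher (red) in WB311 with rapamycin for 27 gene lists, with the number tested in brackets; dashed lines mark the shares over all tested genes, 26.8% lower and 33.9% higher. Replication and mitosis genes were almost all higher, lysosome genes were lower or not called, and most ribosomal protein genes were not called.

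Targets of the stress factor ATF4, many of which supply amino acids, were mostly higher in WB311, with 22 of 28 higher and 2 lower and a median of 0.77. Psat1 (1372665_at), an enzyme of serine synthesis, read 1666, 1678 and 1651 in WB-F344 and 7648, 7468 and 7509 in WB311 cells, a difference of 2.18 ± 0.05 (SE, adjusted p = 2.18e-11). Phgdh and Psph, which catalyse the other steps of that pathway, differed by 1.25 ± 0.05 and 1.83 ± 0.06. All 3 serine genes were separated without overlap, as were 75.3% of all genes tested. Slc7a11, the cystine importer, differed by 3.53 ± 0.17, Slc7a5, a leucine transporter, by 2.36 ± 0.41, and Nupr1, a stress-induced chromatin protein, by 3.18 ± 0.14. Atf4 itself (0.24) was not called, and Cth, an enzyme of cysteine synthesis, was lower at -1.24 ± 0.09. Of 19 cytosolic aminoacyl-tRNA synthetases, which charge tRNAs with amino acids, 13 were higher and 0 lower, led by Yars1 at 1.77 ± 0.06 and Gars1 at 1.26 ± 0.07. With vehicle the ATF4 counts were 21 and 2, so this list differed between the lines with or without the drug.

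The C/EBP-ATF response element, spelled TGATGNAA on either strand, was in 7 of 29 promoter windows of the ATF4 list (24.1%), against 3.82% of all promoters. The list was chosen as targets of ATF4, so this share describes the list and is not a result of the arrays. Nupr1 lies at chr1:190645902-190646151 on the minus strand and Chac1, a glutathione-degrading enzyme that was 1.34 on the log2 scale, at chr3:126795881-126796130 on the plus strand. These were the called members of smallest adjusted p with the spelling upstream of the start, shown for their 250 bases before it, and capitals mark the element.
Nupr1: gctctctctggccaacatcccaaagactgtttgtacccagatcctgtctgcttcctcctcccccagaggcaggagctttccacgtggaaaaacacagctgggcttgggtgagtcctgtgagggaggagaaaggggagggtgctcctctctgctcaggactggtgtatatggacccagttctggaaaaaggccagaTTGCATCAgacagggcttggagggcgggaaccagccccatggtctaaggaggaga
Chac1: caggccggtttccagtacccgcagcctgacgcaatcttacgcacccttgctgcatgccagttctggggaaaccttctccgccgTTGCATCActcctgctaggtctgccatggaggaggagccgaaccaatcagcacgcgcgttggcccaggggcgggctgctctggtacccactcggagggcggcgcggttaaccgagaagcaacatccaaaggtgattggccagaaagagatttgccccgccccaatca

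Lysosome and autophagy genes ran the other way. Of 32 tested, 24 were lower and 0 higher in WB311, with a median of -0.63, and with vehicle 22 were lower and 1 higher. Ctsd (1367651_at), the protease cathepsin D, read 2319, 2286 and 2326 in WB-F344 and 615, 611 and 637 in WB311 cells, a difference of -1.90 ± 0.06 (SE, adjusted p = 3.95e-10). Wipi1, which binds forming autophagosomes, differed by -2.45 ± 0.07 (-0.68 at its other probe set), Gabarapl1, an Atg8 protein of the autophagosome, by -2.05 ± 0.07, and Ctsf, cathepsin F, by -2.87 ± 0.12. Tfeb, the factor that drives lysosome genes and is held in the cytoplasm by mTORC1, was not called (0.19), and Tfe3, its relative, was called lower, at -0.53 ± 0.09. For 5 members, Ctsd, Ctsf and the sialidase Neu1 among them, the line difference was called lower with rapamycin than with vehicle, against 3.87% of all genes. With the WB-F344 plates paired by number this was 8, against 7.9%.

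Other metabolic groups were mixed. Of 19 cholesterol synthesis genes, 9 were lower and 4 higher, against 4 and 4 with vehicle, but the change between treatments was called downward for 1 of them (Msmo1, against 3.87% of all genes) and upward for 0. With the WB-F344 plates paired by number it was called for 1 in each direction, against 18.2% of all genes upward and 7.9% downward. Msmo1, a sterol demethylating oxidase, read 1371, 1385 and 1326 in WB-F344 and 975, 986 and 996 in WB311 cells, a difference of -0.46 ± 0.05 (SE, adjusted p = 1.78e-05), and did not differ by the call rule with vehicle (-0.01). Glycolysis genes were called for 3 of 15 higher and 4 lower: Pfkp, platelet-type phosphofructokinase, was 1.28 ± 0.08 and Ldhb, a lactate dehydrogenase subunit, -1.97 ± 0.07, while Ldha (-0.06) was not called. Of 60 oxidative phosphorylation genes, 14 were higher and 7 lower. Antioxidant and detoxification genes gave 13 higher and 15 lower of 41, with Gpx2, a glutathione peroxidase, at 4.41 ± 0.13, Hmox1, heme oxygenase 1, at -2.78 ± 0.08 and Mgst2, a microsomal glutathione transferase, at -3.49 ± 0.07.

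Growth factor signalling genes differed in both directions. Of 20 ERK feedback and immediate early genes, 13 were lower and 3 higher. With vehicle 10 of 19 tested were lower and 5 higher, against 28.7% and 27.8% of all genes. The change between treatments was called downward for 9 of 20 and upward for 1, against 3.87% and 8.66% of all genes. Dusp1, a MAP kinase phosphatase, read 4753, 4488 and 4531 in WB-F344 and 466, 417 and 466 in WB311 cells, a difference of -3.35 ± 0.07 (SE, adjusted p = 3.4e-11). Areg, amphiregulin, an EGF receptor ligand, read 68.5, 72.4 and 61.9 against 608, 699.5 and 699, a difference of 3.31 ± 0.09 (SE, adjusted p = 1.42e-10). So this ligand was high in WB311 while the ligand Hbegf was lower at -1.40 ± 0.07 and the ERK phosphatase Dusp6 at -1.45 ± 0.09. With vehicle Dusp6 differed by -0.66 ± 0.09. Its mean was 7001 with rapamycin and 3492 with vehicle in WB-F344, and 2575 and 2212 in WB311. In the insulin and IGF axis, 8 of 14 were lower and 5 higher, with Igf2 at -6.64 ± 0.12 and the binding proteins Igfbp2 and Igfbp7 at -7.18 ± 0.14 and -6.10 ± 0.11. Receptor tyrosine kinases and their ligands were split, 12 of 30 higher and 15 lower, as Axl, the GAS6 receptor, was -2.60 ± 0.07 and Fgfr3 2.28 ± 0.11. Chemokine and inflammation genes gave 8 of 17 in each direction, from Ccl20 at 5.31 ± 0.15 to Ccl7 at -6.28 ± 0.09. Interferon-stimulated and antigen presentation genes gave 7 of 17 in each direction, with Bst2, tetherin, at 3.14 ± 0.13 and Gbp2, a guanylate-binding protein, at -3.67 ± 0.12. In the TGF-beta and BMP list, 16 of 33 were lower and 10 higher, with Bmp4 at -5.28 ± 0.09 and Fst, the activin antagonist follistatin, at -4.63 ± 0.13.

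Matrix and contractile genes were mostly lower in WB311. Of 23 actin and contractile genes, 19 were lower and 2 higher, led by Tagln, transgelin, at -6.42 ± 0.18. Of 9 integrins, 7 were lower and 1 higher, with Itga1, a collagen receptor subunit, at -3.66 ± 0.09 and Itgb5 at -3.14 ± 0.08. Collagens gave 10 lower and 4 higher of 15 tested among 31 on the array; Col3a1 read 6506, 7770.0 and 6495 in WB-F344 and 595, 527 and 506 in WB311 cells, a difference of -3.67 ± 0.11 (SE, adjusted p = 3.53e-10), and Col18a1, a basement membrane collagen, was 2.27 ± 0.10. Of 15 collagen processing enzymes, 8 were lower and 4 higher, with Lox, lysyl oxidase, at -1.47 ± 0.07 and P4ha2, a prolyl hydroxylase subunit, at 3.04 ± 0.10 (1.22 at its other probe set). The collagen differences were called nearer to 0 or higher with rapamycin than with vehicle for 6 of the 15, against 8.66% of all genes. The reverse was called for 0, against 3.87% of all genes. With the WB-F344 plates paired by number these counts were 9 and 1, against 18.2% and 7.9% of all genes. For the collagen processing enzymes, without that pairing, the change was called upward for 9 of 15 and downward for 0, against 8.66% and 3.87%. With vehicle 10 of these enzymes were lower and 2 higher, against 28.7% and 27.8% of all genes.

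The remaining lists held members called in both directions. Matrix glycoproteins gave 7 higher and 14 lower of 24, with Nid1, the basement membrane linker nidogen 1, at 4.67 ± 0.19 (0.88 at its other probe set) and Lama3, a laminin chain, at -3.40 ± 0.10. Matrix proteases and inhibitors gave 2 higher and 5 lower of 9, with the membrane collagenase Mmp14 at -3.70 ± 0.07 (-0.75 at its other probe set). Targets of the coactivator YAP gave 3 higher and 8 lower of 17, with the matricellular proteins Ccn1 and Ccn2 at -3.47 ± 0.09 and -2.14 ± 0.08, and keratins gave 2 of 4 in each direction. Junction and EMT genes gave 7 higher and 5 lower of 18, with F11r, the tight junction protein JAM-A, at 4.67 ± 0.16 and Ocln, occludin, at -2.67 ± 0.07. Wnt pathway genes gave 8 higher and 5 lower of 18, with the R-spondin receptor Lgr4 at 2.89 ± 0.09 and the Wnt antagonist Sfrp1 at -5.28 ± 0.24 (-2.54 at its other tested probe set). Imprinted genes gave 2 higher and 6 lower of 10, with the zinc finger factor Plagl1 at 2.16 ± 0.12 and the IGF2-clearing receptor Igf2r at -2.23 ± 0.09. Oncofetal genes gave 8 higher and 6 lower of 15, with the heparan sulfate proteoglycan Gpc3 at -5.33 ± 0.15. BCL2 family and caspase genes gave 11 higher and 12 lower of 28, with Casp4, an inflammatory caspase, at 2.59 ± 0.12 and the death receptor Fas at -1.46 ± 0.12. Pentose phosphate genes gave 4 higher and 1 lower of 8, with Pgd, 6-phosphogluconate dehydrogenase, at 1.25 ± 0.05, and fatty acid synthesis genes 4 higher and 1 lower of 12, with the stearoyl-CoA desaturase Scd2 at 4.34 ± 0.24 (2.42 at its other tested probe set).

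**Figure D4:**
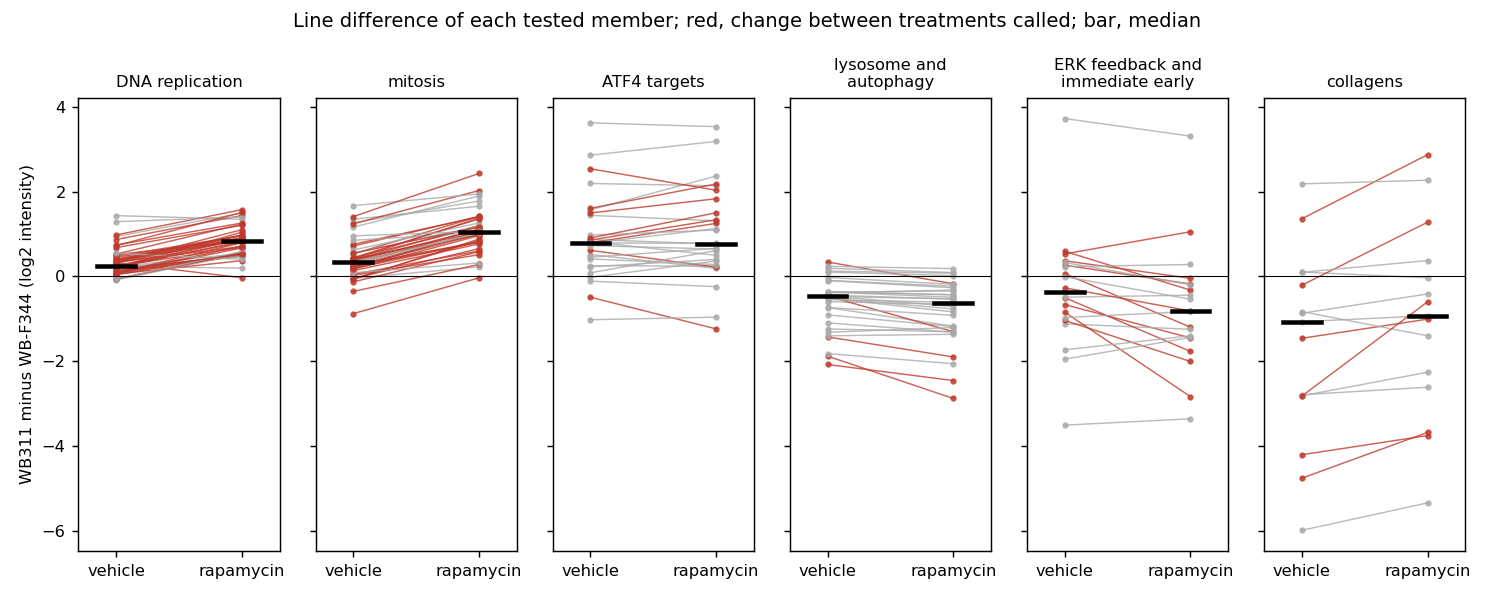
Log2 intensity of WB311 minus WB-F344 (vertical) with vehicle and with rapamycin for each tested member of 6 lists, joined by a line that is red where the change between treatments was called, with black bars at the medians over the members tested with rapamycin. Replication and mitosis genes moved upward together (34 and 31 called), and ATF4 targets kept about the same median.

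The treatments were then compared. The rapamycin and vehicle line contrasts used no array in common. With vehicle 7698 of 13871 probe sets (55.5%) were called, and 4035 genes were called in both, 4004 of them with the same sign. The line difference with rapamycin minus that with vehicle was called for 1517 of 14214 probe sets (10.7%), 1044 upward (7.34%) and 473 downward (3.33%), a split that moved with the scaling of the arrays, being 881 and 720 after cyclic loess and 1077 and 369 after median centring. In WB-F344 the vehicle and rapamycin plates numbered 2 deviated together, while plates 1 and 3 correlated about as well across numbers as within them. With the WB-F344 plates paired by number the count was 3498 (24.6%), 2396 upward (16.9%) and 1102 downward (7.75%). By gene, the change was called for 440 differences that were wider with the drug (widened), 126 narrower (narrowed) and 31 of the opposite sign (turned). A further 1162 genes were called with rapamycin and not with vehicle, and 784 the reverse. The change between treatments was itself called for 298 of the former (280 of these tested with vehicle too) and 152 of the latter (138 tested with rapamycin too), or 565 and 314 with the pairing. Without WB311 rapamycin plate 3 the change was called for 989 probe sets and for 196 genes called with rapamycin and not with vehicle, and without both WB-F344 plates numbered 2 for 2974 and 514, so that these totals depended on single plates and on the pairing. This difference rests on the same arrays as both line contrasts, so the values are given side by side.

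Among genes called with the drug only whose change was called too, Mgp (1367568_a_at), matrix Gla protein, an inhibitor of calcification, had the largest difference. It read 3709, 3727 and 3620.1 in WB-F344 and 377, 325 and 331 in WB311 cells with rapamycin, and 265, 284 and 259 and 235, 238 and 284 with vehicle. The lines overlapped with vehicle and were over 10-fold apart with rapamycin, at -3.42 ± 0.09 (SE, adjusted p = 6.88e-11) against -0.10 ± 0.09 (SE, adjusted p = 0.336). Sgk1, a kinase activated by mTORC2, read 724, 679 and 662 against 357, 409 and 357 with rapamycin and 303, 317 and 257 against 314, 283 and 334 with vehicle. Col14a1, a fibril-associated collagen, read 155, 149.8 and 146 against 370.2, 376 and 349 with rapamycin and 259, 234 and 258 against 211, 214 and 226 with vehicle. So Sgk1 was lower and Col14a1 higher in WB311 with the drug, at -0.88 ± 0.10 (SE, adjusted p = 1.04e-05) and 1.28 ± 0.06 (SE, adjusted p = 1.36e-08), where neither was called without it. For Sgk1 the vehicle plates of the lines overlapped, at 0.09 ± 0.10 (SE, adjusted p = 0.441). For Col14a1 they did not, and the difference with vehicle, -0.21 ± 0.06 (SE, adjusted p = 0.0139), ran in the opposite direction and missed the call on its fold alone. Cd14, a coreceptor of bacterial lipopolysaccharide, was -0.89 ± 0.11 with rapamycin and -0.11 with vehicle. Prph, the intermediate filament peripherin, was 1.97 ± 0.18 with rapamycin and 0.38 with vehicle, where its plates did not overlap either.

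A few genes turned. Spp1, a secreted integrin ligand, read 1098, 912 and 1056 in WB-F344 and 287, 298 and 287 in WB311 cells with rapamycin, and 302, 245 and 299 and 401, 407 and 434 with vehicle. The resistant line was thus lower with the drug (-1.81) and higher without it (0.56). Ptgs2, cyclooxygenase 2, went the same way, from 0.88 to -1.62, while Ogn, the proteoglycan osteoglycin, and Ackr3, a scavenging chemokine receptor, went from -1.01 to 1.19 and from -0.70 to 0.64. Genes whose differences were widened included Esm1, an endothelial-secreted proteoglycan, from -5.29 to -7.81, Smtnl2, a smoothelin-like protein, from 1.67 to 3.84 (2.81 with rapamycin at its other probe set), and Nox1, an NADPH oxidase, from -2.68 to -4.29. Narrowed ones included Col12a1, from -2.82 to -0.60, Krt14, from -2.88 to -0.85, and Cxcl10, an interferon-induced chemokine, from 3.89 to 2.24. Called with vehicle only were Deptor and Smyd3, a lysine methyltransferase. Smyd3 was -0.99 ± 0.06 (SE, adjusted p = 1.83e-07) without the drug and 0.24 ± 0.06 (SE, adjusted p = 0.00784) with it, where its plates did not overlap either, the direction was the opposite one and only the fold missed the call.

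**Figure D5:**
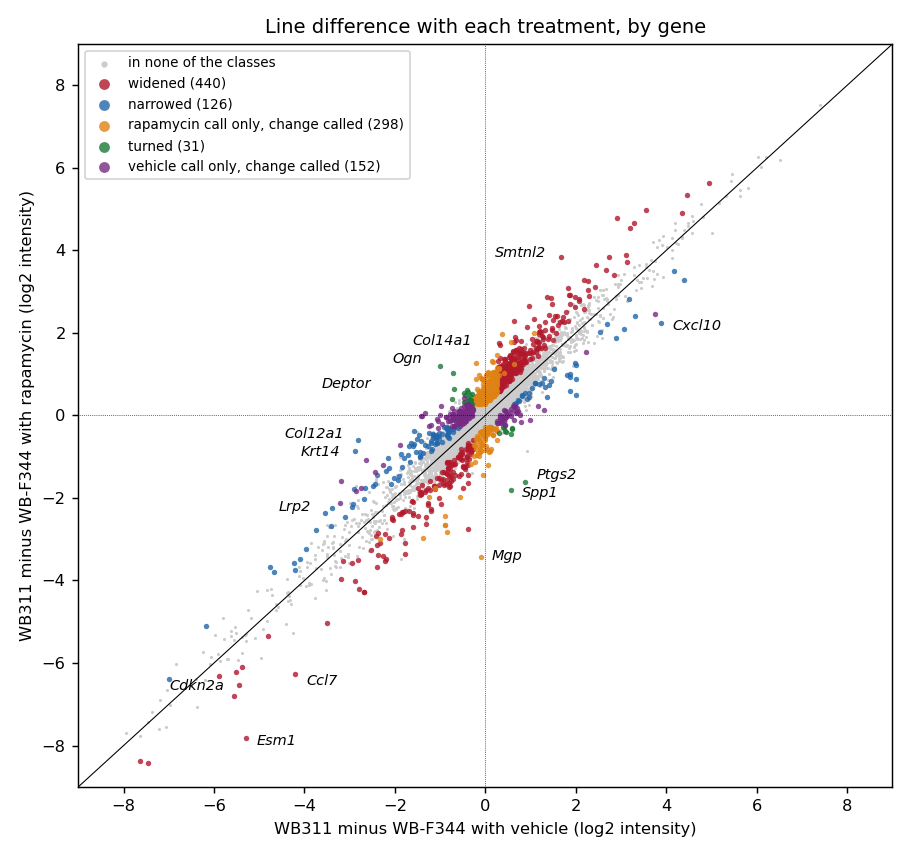
Log2 line difference, WB311 minus WB-F344, of each gene with vehicle (horizontal) and with rapamycin (vertical), coloured by class where the change between treatments was called, with equal differences on the diagonal. Most genes lie along the diagonal, and Mgp lies far below it near 0 on the horizontal axis. Genes that turned have opposite signs with vehicle and with rapamycin and were called with both. Other genes of opposite signs, such as Col14a1, were not called with both.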

How the data were processed

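Gene expression was measured on Affymetrix Rat Genome 230 2.0 arrays. The deposited intensity values are those the authors made with Robust Multiarray Average over all arrays and put on a linear scale, which makes arrays comparable and compresses differences of dim probe sets. The array median ran from 59.5 to 62.9, and the number of arrays limits the precision. Here log2 was taken and 4 groups of 3 arrays were fitted together with limma 3.58.1 (R 4.3.3), with moderated variances over probe sets whose mean was at least 100 in 1 or more groups. A call needed a mean of at least 100 in a compared group, an adjusted p (Benjamini-Hochberg) under 0.05 and a fold of at least 1.2. The change between treatments was the difference of the 2 line differences in the same fit. The labels do not say that a plate number marks a shared batch. Over probe sets, deviations of same-numbered plates from their group means correlated at 0.68, 0.87 and 0.56 between WB-F344 vehicle and rapamycin. The values were -0.06, 0.00 and -0.14 within WB311, and -0.07, 0.11 and 0.20 between the lines with rapamycin. In WB-F344, vehicle plate 1 correlated at 0.61 with rapamycin plate 3, and vehicle plate 3 at 0.58 with rapamycin plate 1. Only the plates numbered 2 thus stood apart, and plates 1 and 3 were not told apart by number. The numbers were taken as pairs within WB-F344 only, in an alternative fit of the change between treatments that was added after seeing the data. The study's methods used a t-test, which was run as an alternative, since 3 arrays per group give it few degrees of freedom. Figures were drawn with Python 3.11.15 and matplotlib 3.10.9.

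Of 31042 probe sets, 20826 had 1 gene symbol in the platform annotation, 436 several and 9780 none. A gene was read at its single-symbol probe set of highest mean log2 value, giving 14217 genes, of which 14167 identifiers were found in RefSeq (GRCr8), the source of the promoters. A gene was widened or narrowed when called with both treatments in the same direction, with a called change away from or toward 0; turned when both calls had opposite signs; and called with 1 treatment only when the other missed the call, each with a called change.

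Genes were named by rule. Among called genes whose arrays did not overlap, the rule took the 10 highest and 10 lowest differences with both lines at 100 or more. It took the same with 1 line under 100, and up to 4 members of each of 38 gene lists by smallest p. Whether or not arrays overlapped, it took defining markers in 5 marker lists, the 8 largest changes in each class, and the genes the study measured. Other members are named for their role in a list, chosen after their values were seen. All members and lists were chosen with earlier results of these data known. The fit was tested on simulated data. These had the same spread in all groups and independent plates, so they do not cover an unequal spread or plates that deviate together. The median SD of log2 values was 0.15 with vehicle and 0.13 with rapamycin in WB-F344, and 0.08 and 0.06 in WB311.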

Additional observations from a re-analysis of the deposited data

Results flagged for a closer look

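For the genes below, the difference between the lines with rapamycin differed from that with vehicle in the limma fit at an adjusted p under 0.05. Each value is the line difference (WB311 minus WB-F344, log2) with rapamycin minus that with vehicle, over 3 plates per group. For the replication, mitosis and G1/S genes, this change was 0.77 for Cdt1, 0.78 for Gmnn, 0.56 for Gins1, 0.57 for Gins3, 0.6 for Pole2, -0.35 for Orc4, 0.79 for Racgap1, 0.74 for Bub1b, 1.02 for Melk, 0.62 for Cdk2, 0.49 for Ccne1 and 0.6 for Rbl1. For the CDK inhibitors and cyclin D2, this change was -1.07 for Cdkn2a, -1.31 for Cdkn2b and -1.0 for Ccnd2. In the mTOR pathway, this change was 1.4 for Deptor, 0.58 for Prr5, -0.51 for Ddit4 and -0.97 for Sgk1. Among amino acid supply genes, this change was 0.57 for Psat1, 0.46 for Phgdh, 0.33 for Psph, 0.48 for Chac1 and -0.75 for Cth. Among lysosome and other metabolic genes, this change was -0.47 for Ctsd, -1.0 for Ctsf, -0.84 for Neu1, -0.38 for Wipi1, -0.46 for Msmo1, -0.71 for Pfkp and -0.68 for Mgst2. Among secreted factors, receptors and signalling genes, this change was 1.2 for Cxcl1, -1.64 for Cxcl10, -2.07 for Ccl7, -0.77 for Cd14, 1.33 for Ackr3, 1.66 for Fgfr3, -0.78 for Dusp6, -0.71 for Igfbp7, 1.11 for Id2, -2.52 for Esm1, -2.51 for Ptgs2, -2.37 for Spp1, 0.63 for Ccn1, 0.78 for Ccn2, 0.71 for Igf2r, 0.96 for Plagl1, 0.61 for Lgr4 and -0.65 for Fas. Among matrix and adhesion genes, this change was -3.32 for Mgp, 2.2 for Ogn, 2.22 for Col12a1, 1.49 for Col14a1, 1.08 for Col3a1, 0.44 for Lox, 0.77 for P4ha2, -0.73 for Itgb5, -0.79 for Mxra8, 0.68 for Cdh3, 1.38 for Nid1 and -1.14 for Lama3. For the remaining genes, this change was 1.07 for Krt7, 2.03 for Krt14, 1.16 for Cd24, 1.59 for Prph, 0.88 for Fxyd3, 2.17 for Smtnl2, 1.23 for Smyd3, -1.61 for Nox1 and -0.97 for Cpe. Of 22 other settings, the call was lost in 16 for Cdh3, in 15 each for Orc4 and Psph, in 13 each for Rbl1 and Wipi1, in 12 for Chac1, in 11 for Fas, in 7 for Ccne1 and in 6 for Cdkn2b, and in 1 or 0 for the other genes given here.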

How the results depend on the processing

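Of 241 genes examined singly, 222 were called, and 172 kept the call in every one of 24 settings in which they were tested. Of 110 called changes between treatments, 51 did so over 22 settings. The setting that required a fold of 2, which drops smaller called differences by its rule, took the call from 50 of the genes and 57 of the changes. Both totals therefore mostly reflect the size of the differences. The count of called probe sets between the lines with rapamycin was 8204, against 8330 when only the 6 rapamycin arrays were fitted. The methods' t-test gave 7485 with equal and 6277 with unequal variances. Requiring a fold of 2 left 2559 probe sets (1329 higher, 1230 lower) and 1584 genes with rapamycin, 2214 probe sets with vehicle, 176 for the change between treatments (95 upward, 81 downward), and 37 widened, 9 narrowed, 34 rapamycin-only, 1 turned and 20 vehicle-only genes, each with a called change. The change between treatments was the less stable result. Filtering on fold before the correction gave 2544 probe sets (1740 upward, 804 downward), 668 widened, 235 narrowed, 459 rapamycin-only and 241 vehicle-only genes. Cyclic loess gave 720 downward against 881 upward. Without both WB-F344 plates numbered 2, the counts were 2974 (2013 upward, 961 downward), 737 widened, 265 narrowed, 514 rapamycin-only and 254 vehicle-only. Leaving out 1 array at a time gave 7754 to 8599 probe sets between the lines with rapamycin. By class it gave 303 to 509 widened, 81 to 173 narrowed, 196 to 383 rapamycin-only, 26 to 47 turned and 86 to 184 vehicle-only genes. For the change between treatments it gave 989 to 1879 probe sets (660 to 1385 upward and 311 to 714 downward). That total of 989 was without WB311 rapamycin plate 3 and that of 1879 without WB-F344 vehicle plate 2. The cause was not tested. Between the lines with rapamycin, Mtor lost its call in the unequal-variance t-test, Col12a1 in both t-tests and Rps6 after loess. Some of the genes not called changed sign between settings. After loess Deptor was -0.015, Ccnd1 -0.036, Rheb -0.002 and Tsc1 -0.024, and Ttr was 0.008 after median centring. Without both WB-F344 plates numbered 2, Ccnd1 was -0.09 and Rps6kb1 0.001. Without 1 array, Deptor ran from -0.033 to 0.245, Ttr from -0.087 to 0.074, Ccnd1 from -0.09 to 0.15, Tsc1 from -0.018 to 0.138, Rps6kb1 from -0.235 to 0.001 and Orc4 from -0.068 to 0.011. Akt1 and Rictor were called without both WB-F344 plates numbered 2, Tsc2 after loess and Atf4 after median centring. Fitting the replicate number as a block over both lines gave 8358 probe sets between the lines with rapamycin and 1408 for the change between treatments. Between the lines the numbers were not treated as pairs. The replicate block within WB-F344, chosen after seeing the data and used for the change between treatments alone, gave 3498 probe sets (2396 upward, 1102 downward), 808 widened, 310 narrowed, 31 turned, 565 rapamycin-only and 314 vehicle-only genes, and all 110 called changes of single genes kept their call.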
